A study of Enchytraeus albidus with 15 samples.

Results

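The Ealb_Pest probes are the 198 of 1035 non-control probes on a custom microarray of *Enchytraeus albidus* whose names begin with Ealb_Pest. They were taken by this prefix alone, a rule that uses no measured value. *E. albidus*, the white potworm, is a small oligochaete worm that lives in soil and decaying matter and is used in tests of soil toxicity. Adult worms with a developed clitellum, 10 in each vessel, spent 2 days in soil with silver nitrate (AgNO3) at 100 or 200 mg/kg, in soil with the same concentrations of silver nanoparticles (Ag-NP), or in clean OECD soil, the control. All 5 groups had 3 biological replicates, and the pooled whole bodies of a replicate were hybridised to 1 array of 1 colour. A level is therefore an average over all tissues of pooled worms, in which fewer cells of a type and less RNA per cell cannot be told apart. Silver concentrations are those the labels give.

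Silver nitrate is a soluble salt that gives free silver ions, which bind the thiol groups of proteins. Silver nanoparticles are metallic particles that can release such ions as they dissolve, and how far the particles act other than through released ions is a standing question of ecotoxicology. Animals exposed to silver or related metals are known to induce metal-binding metallothioneins and enzymes against oxidative stress. The comparisons address the response of the Ealb_Pest transcripts to each form and dose of silver and any difference between salt and particles.

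Neither the files nor the labels pair these probes with a gene, a description or a sequence, and no table that does so was used, so no probe is assigned a function. A probe's name gives a plate, a well, a primer and a number, as in Ealb_Pest_P10_A3_SP6_2091097, and the files do not explain the prefix. SP6 and T7 are promoters of phage RNA polymerases that flank the insert of common cloning vectors, and primers to them read a clone from either end. The 198 names cover 10 plates, with 174 SP6 and 24 T7 reads, and no plate and well occurs with both primers. Each probe had 15 spots on an array, of which at least 10 remained after outliers were left out.

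Levels are log2 of the spot signal relative to the 75th percentile of the same array, averaged over the spots of a probe, so 1 unit is a 2-fold difference and levels of different probes are not compared. Being well above background on an array took a share of 0.5 or more of a probe's spots that the scanner software marked so. Testing in limma covered the 446 probes of the whole array that met this on every array of some group, and "rose", "fell" and "changed" mean an adjusted p below 0.05. The 75th percentile, called brightness here, ranged from 16.9 to 54.3 between arrays with a median of 21.9. The 15 arrays lay on 3 slides. Slide 3, scanned on a second day, held all Ag-NP 100 mg/kg arrays and 1 array each of AgNO3 200 mg/kg, Ag-NP 200 mg/kg and control. Slides 1 and 2 held the others, and no slide held both AgNO3 and Ag-NP at 100 mg/kg. Replicate 3 of AgNO3 at 200 mg/kg, replicate 1 of Ag-NP at 100 mg/kg and replicate 3 of control stood apart, with a spread of the negative-control spots of 12.6, 9.87 and 7.36, beside a median of 4.09 over all arrays.

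Of the 198 Ealb_Pest probes, 96 (48.5%) were not well above background on any of the 15 arrays, against 262 of the 837 other probes (31.3%). A further 32 were well above background on 1 to 8 arrays, with a median of 3, but on no complete group, and were not tested. Of these 32, 14 were above background on no control array and 1 on control arrays only. Control gave only 3 of the 15 arrays, so a probe seen on few arrays misses control more easily than all silver arrays. The split is therefore uneven by design, and that of the other probes is not given. The remaining 70 (35.4%) were tested, against 376 of the other probes (44.9%), and 33 (16.7%) were above background on every array, against 194 of the others (23.2%). The other kinds of name differed among themselves too, with 48.4% of 345 Ealb_Met probes, 53.2% of 171 contigs and 36.8% of 321 other clones tested. These shares describe the array's probes and were not tested against each other.

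Detection of the Ealb_Pest probes differed by primer. Of the 24 T7 probes, 18 (75%) were tested and 3 were above background on no array, against 52 of the 174 SP6 probes (29.9%) tested and 93 on no array. Among the Ealb_Met probes 59.5% with T7 and 46.9% with SP6 were tested, and among the other clones 36.3% with T7 and 37.9% with SP6. By plate, the tested share of the Ealb_Pest probes ran from 16.7% (3 of 18 on plate 8) to 53.8% (7 of 13 on plate 2). Whether probe length, base composition or the read's position in the transcript moves with the primer was not tested, since no sequences were used.

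The number of Ealb_Pest probes well above background was 71, 90 and 75 on the AgNO3 100 mg/kg arrays, and 71, 60 and 35 on the AgNO3 200 mg/kg arrays. It was 59, 49 and 66 with Ag-NP at 100 mg/kg, 66, 71 and 68 with Ag-NP at 200 mg/kg, and 80, 85 and 41 in control. The lowest counts of AgNO3 at 200 mg/kg and of control came from replicate 3 of each, both among the arrays of high negative-control spread, and the remaining control arrays exceeded all but 1 of the silver arrays. On all 3 arrays of a group, 68 Ealb_Pest probes (34.3%) were above background with AgNO3 at 100 mg/kg, 34 (17.2%) with AgNO3 at 200 mg/kg, 44 (22.2%) with Ag-NP at 100 mg/kg, 59 (29.8%) with Ag-NP at 200 mg/kg and 39 (19.7%) in control. All 1035 probes ran in the same order, at 41.7%, 24.1%, 31.0%, 38.1% and 26.8%. Of the 70 tested Ealb_Pest probes, 11 passed the filter through AgNO3 at 100 mg/kg alone and 2 through Ag-NP at 200 mg/kg alone, so counts over the 70 are descriptions and carry that choice.

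**Figure D1:**
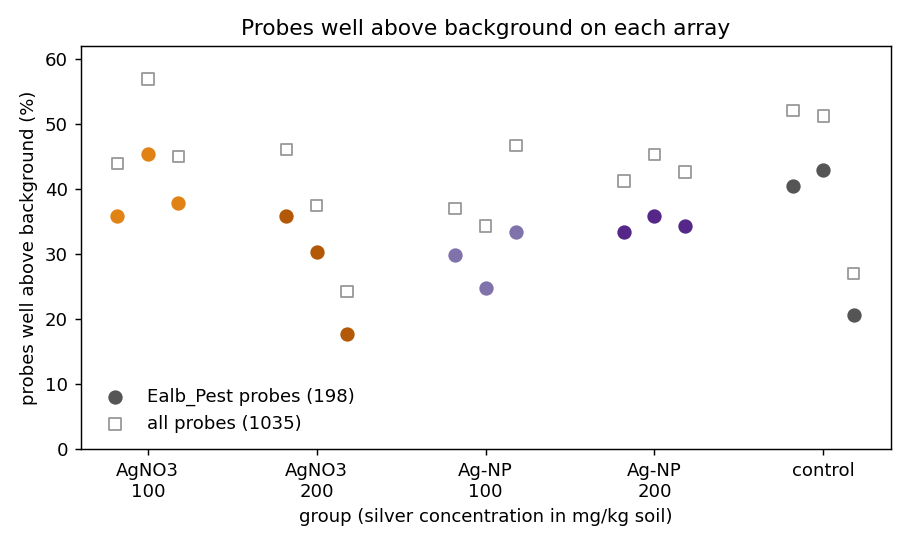
Share of probes well above background (%, vertical axis) on each of the 15 arrays, by group, for the 198 Ealb_Pest probes (filled circles) and all 1035 probes (open squares). The Ealb_Pest share lay between 17.7% and 45.5% and below the share of all probes on each array.

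AgNO3 at 200 mg/kg changed 4 of the 70 tested Ealb_Pest probes (5.71%) against control, where 10.8% of all tested probes changed (limma). Ealb_Pest_P8_B10_SP6_2090967 and Ealb_Pest_P6_D6_SP6_2092072 rose, and Ealb_Pest_P10_A3_SP6_2091097 and Ealb_Pest_P5_G5_SP6_2091955 fell. These are 2.86% of the Ealb_Pest probes in each direction, beside 7.85% of all tested probes higher and 2.91% lower. The split of 2 higher to 2 lower was 1 to 2 with normexp and quantile normalization or array median scaling. It was 0 to 3 when the percentile came from probes measured on every array, and 0 to 2 with spike-in scaling and in the authors' deposited table. These splits count all calls under a setting, and some of those calls were not among the 4. The changes are given relative to the 75th percentile, on which the median of all 446 tested probes was -0.21. That median was -0.03 with normexp and quantile normalization and -0.92 with spike-in scaling.

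Ealb_Pest_P10_A3_SP6_2091097 had levels of 2.13, 0.95 and 1.33 on the AgNO3 200 mg/kg arrays, against 3.96, 3.49 and 3.44 on the control arrays. Every AgNO3 array at this concentration was below every control array, and the probe was well above background on all 15 arrays. The level averaged 1.47 ± 0.60 with AgNO3 at 200 mg/kg and 3.63 ± 0.29 in control (SD, n = 3 each). This 4.48-fold fall, -2.16 ± 0.45 on the log2 scale (SE), had an adjusted p of 0.0122 in limma. Relative to the median of all tested probes the change was -1.95. With AgNO3 at 100 mg/kg its levels were 2.88, 2.23 and 2.14, between those at 200 mg/kg and control and overlapping neither, though the lowest, 2.14, was next to the 2.13 of an array at 200 mg/kg. With Ag-NP its levels were 2.79, 4.38 and 2.91 at 100 mg/kg and 3.47, 2.76 and 3.48 at 200 mg/kg, and both Ag-NP groups overlapped control.

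The fall was present on each slide, where 1 AgNO3 200 mg/kg array could be set against 1 control array, with differences of -1.84, -2.54 and -2.11 on slides 1, 2 and 3. It passed with slide as a block, and it missed the threshold without control replicate 1 (limma, adjusted p = 0.0658) or AgNO3 200 mg/kg replicate 3 (adjusted p = 0.0538).

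Ealb_Pest_P5_G5_SP6_2091955 had levels of -1.13, -2.62 and -2.43 with AgNO3 at 200 mg/kg, against -0.12, -0.33 and -0.28 in control. The groups did not overlap, but only 1 of the 3 AgNO3 arrays measured the probe well above background, so the size of its fall is uncertain. Its log2 fold change was -1.82 ± 0.48 (SE, n = 3 each), a 3.52-fold fall from means of -2.06 ± 0.81 with AgNO3 at 200 mg/kg and -0.24 ± 0.11 in control (SD), with an adjusted p of 0.03 in limma. The differences on slides 1, 2 and 3 were -1.01, -2.29 and -2.15. With AgNO3 at 100 mg/kg the levels were -0.92, -2.09 and -1.04, all below the control arrays. With Ag-NP they were -1.46, 0.24 and -0.50 at 100 mg/kg, which overlapped control, and -0.50, -0.77 and -0.72 at 200 mg/kg, which lay below it.

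The fall of Ealb_Pest_P5_G5_SP6_2091955 passed with slide as a block and missed the threshold when any 1 of the control arrays, or replicate 2 or 3 of AgNO3 at 200 mg/kg, was left out (limma, adjusted p = 0.0503 to 0.121). With normexp and quantile normalization its log2 fold change was -0.17 (limma, adjusted p = 0.226), where an offset of 50 was added to a signal near background.

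Ealb_Pest_P6_D6_SP6_2092072 had levels of 6.40, 5.49 and 6.20 with AgNO3 at 200 mg/kg, against 3.74, 4.40 and 5.12 in control. The lowest AgNO3 array stood above the highest control array, on a probe well above background everywhere. The log2 fold change was 1.61 ± 0.48 (SE), a 3.06-fold rise, with means of 6.03 ± 0.48 with AgNO3 at 200 mg/kg and 4.42 ± 0.69 in control (SD, n = 3 each, limma adjusted p = 0.0452). Slide 1 gave a difference of 2.66, and slides 2 and 3 gave 1.10 and 1.08. The levels were 4.05, 3.90 and 5.69 with AgNO3 at 100 mg/kg, 4.50, 5.09 and 4.74 with Ag-NP at 100 mg/kg, and, at 200 mg/kg of Ag-NP, 4.96, 5.61 and 5.06. Each of these groups overlapped control.

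Ealb_Pest_P8_B10_SP6_2090967 had levels of 1.53, 1.58 and 1.72 with AgNO3 at 200 mg/kg, against 0.33, -0.36 and -0.38 in control. Its AgNO3 200 mg/kg arrays lay closer together than those of the other groups. The log2 fold change was 1.75 ± 0.52 (SE), a 3.36-fold rise, with means of 1.61 ± 0.10 with AgNO3 at 200 mg/kg and -0.14 ± 0.41 in control (SD, n = 3 each, limma adjusted p = 0.0452). The differences on slides 1, 2 and 3 were 1.20, 1.93 and 2.11. The levels were 1.10, -0.06 and 1.40 with AgNO3 at 100 mg/kg, -2.15, 0.22 and -0.33 with Ag-NP at 100 mg/kg, and, at 200 mg/kg of Ag-NP, 0.68, 0.43 and 0.21. The lowest of these arrays, Ag-NP 100 mg/kg replicate 1, was among those of high negative-control spread, and the probe was well above background on 2 of the 3 arrays of that group.

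Neither rise passed with slide as a block, when both had an adjusted p of 0.0764 in limma, while both falls did. With brightness as a covariate neither rise passed, and 3 Ealb_Pest probes were lower, 2 of them among the 4. The log2 fold change of Ealb_Pest_P8_B10_SP6_2090967 was then 1.39 (limma, adjusted p = 0.0745). With 1 array left out in turn, Ealb_Pest_P8_B10_SP6_2090967 passed in 4 of 15 fits and Ealb_Pest_P6_D6_SP6_2092072 in 5 of 15. Ealb_Pest_P10_A3_SP6_2091097 passed in 13 of 15 fits and Ealb_Pest_P5_G5_SP6_2091955 in 10 of 15. When the 3 arrays of high negative-control spread were left out, 12 Ealb_Pest probes were lower and none was higher, and 1 of the 12 was among the 4. The share of all tested probes in that fit is not given, so the 12 cannot be set against the whole array.

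**Figure D2:**
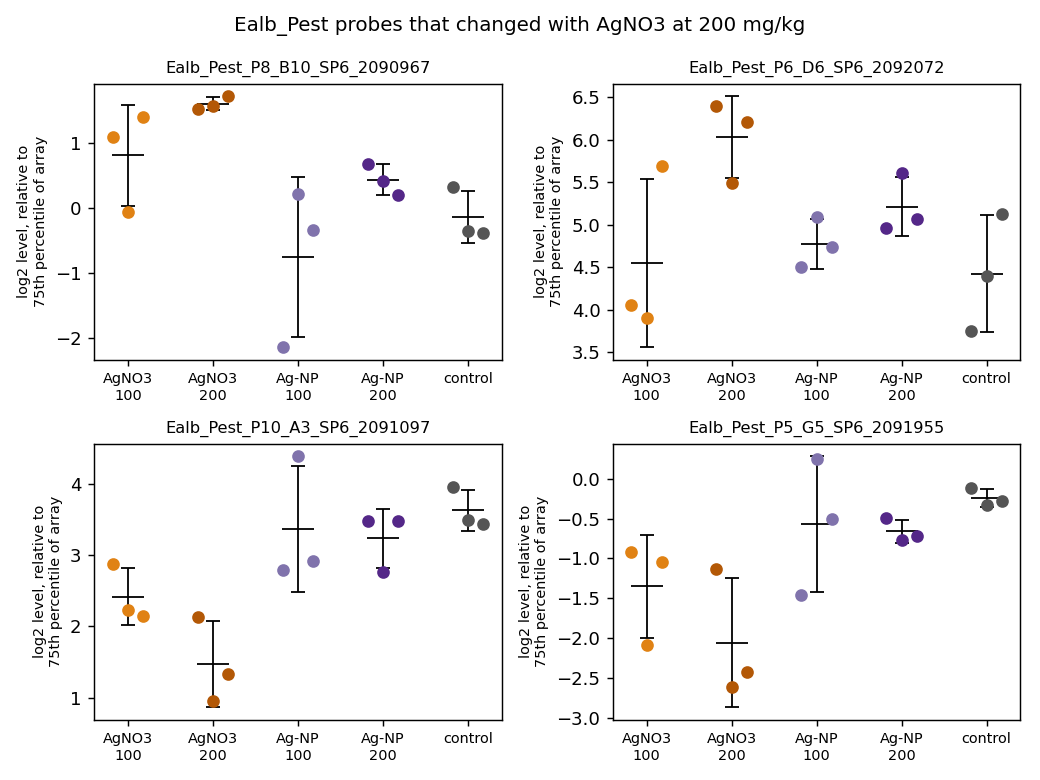
Levels (log2 relative to the array's 75th percentile, vertical axis) on each array for the 4 Ealb_Pest probes that changed with AgNO3 at 200 mg/kg against control. Points are arrays, horizontal bars are means and whiskers are the SD (n = 3). In each panel the AgNO3 200 mg/kg arrays lie beyond the control arrays, upwards in the upper pair and downwards in the lower pair.

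By the correlation of group means over the 5 groups, the probe most like Ealb_Pest_P10_A3_SP6_2091097 was Ealb_Pest_P5_G5_SP6_2091955, the other fall, at r = 0.998 over the groups and 0.92 over the 15 arrays. Ealb_Pest_P7_H2_SP6_2092140 came next, with r = 0.97 over groups and 0.85 over arrays, and was second for Ealb_Pest_P5_G5_SP6_2091955 as well. Its means were -1.38 with AgNO3 at 200 mg/kg and -0.32 in control. Most like Ealb_Pest_P8_B10_SP6_2090967 were Ealb_Pest_P7_E8_SP6_2092183 (r = 0.997 over groups, 0.87 over arrays) and Ealb_Pest_P2_D4_SP6_2091280 (0.99 and 0.76). Ealb_Pest_P6_D6_SP6_2092072 had looser matches in Ealb_Pest_P5_A2_T7_2175153 (0.93 and 0.58) and Ealb_Pest_P1_F11_SP6_2090898 (0.87 and 0.65). All of these points share arrays and hence their scaling, and the pairs were picked as the highest of many.

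With AgNO3 at 200 mg/kg the log2 fold change against control was below 0 for 49 of the 70 tested Ealb_Pest probes (70%), beside 58.1% of all tested probes. Among probes above background on every array it was below 0 for 66.7% of the 33 Ealb_Pest probes, beside 54.2% of all 227. Of the 70, 14 had an unadjusted p below 0.05 (20%, beside 28.5% of all tested probes), 11 of them lower and 3 higher, beside 15.2% of all lower and 13.2% higher. The 3 AgNO3 arrays lay apart from the 3 control arrays for 25 of the 70 (35.7%), with 11 higher and 14 lower, beside 32.5% of all tested probes, 19.1% higher and 13.5% lower. The median log2 fold change was -0.51 for the 70 and -0.21 for all 446. For probes above background on every array it was -0.49 for the 33 Ealb_Pest probes and -0.10 for all 227, and that gap of -0.39 was -0.38 in the authors' deposited table and -0.17 with normexp and quantile normalization. Probes are not independent replicates, and these medians are descriptions.

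**Figure D3:**
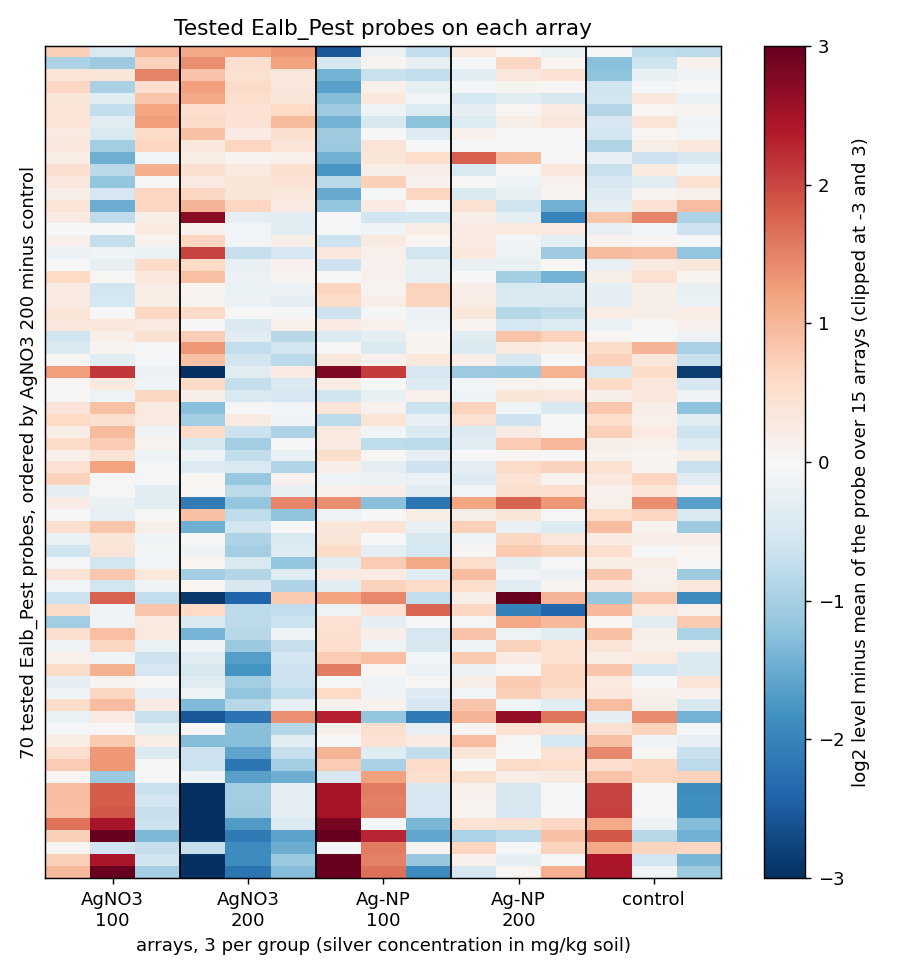
Level of each of the 70 tested Ealb_Pest probes (rows) on each of the 15 arrays (columns, 3 per group), as log2 minus the probe's mean over all arrays, with red higher and blue lower and colours clipped at -3 and 3. Rows run from the highest to the lowest difference of AgNO3 200 mg/kg minus control, and in the lowest rows replicate 1 of AgNO3 at 200 mg/kg is blue where replicate 1 of Ag-NP at 100 mg/kg is red.

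With AgNO3 at 100 mg/kg no Ealb_Pest probe passed against control (limma), where 2.91% of all tested probes did, and 3 of the 70 had an unadjusted p below 0.05, beside 11.9% of all. The arrays lay apart for 8 of the 70 (11.4%, beside 15.9% of all). On the higher side the smallest p belonged to Ealb_Pest_P6_B10_SP6_2092102, with levels of -1.78, -1.80 and -0.69 on the AgNO3 arrays and -3.38, -2.39 and -2.28 on the control arrays. The groups did not overlap, and the fitted log2 difference of 1.26 ± 0.41 (SE) had an adjusted p of 0.133 in limma. Its size is uncertain, since only 1 control array measured the probe well above background. The probe entered the test through AgNO3 at 100 mg/kg alone, the brighter group here, so it was chosen for being bright there. On the lower side it was Ealb_Pest_P10_A3_SP6_2091097 again, with a log2 difference of -1.21 ± 0.45 (limma adjusted p = 0.194), whose arrays are given above. The median log2 difference was 0.12 for the 70 Ealb_Pest probes and 0.11 for all 446. For 54 of the 70 the 95% interval lay within a 4-fold difference in either direction. Some of the 70 were not above background on every array compared, where the size of a difference is uncertain. The count therefore does not exclude larger changes, and the share of all 446 is not given.

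Ag-NP at 200 mg/kg changed no Ealb_Pest probe against control, and 0% of all tested probes (limma), with 3 of the 70 at an unadjusted p below 0.05, beside 9.87% of all. Groups did not overlap for 5 of the 70, beside 14.6% of all. Ealb_Pest_P9_D5_T7_2175194 had levels of 4.997, 4.15 and 3.24 with Ag-NP at 200 mg/kg and 2.97, 2.59 and 2.73 in control. All Ag-NP arrays were above all control arrays, but they spread over more than 1 unit, and the log2 difference of 1.36 ± 0.56 (SE) had an adjusted p of 0.444. Ealb_Pest_P7_A4_SP6_2092148 had 2.88, 1.87 and 1.48 with Ag-NP at 200 mg/kg and 3.07, 3.35 and 3.01 in control, a log2 difference of -1.07 ± 0.39 (limma adjusted p = 0.382). The median difference was 0.03 for the 70 and 0.12 for all 446, and 55 of the 70 intervals lay within a 4-fold difference.

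Ag-NP at 100 mg/kg likewise changed no Ealb_Pest probe against control, and 0% of all tested probes (limma), with 1 of the 70 at an unadjusted p below 0.05, beside 2.24% of all. Groups were apart for 2 of the 70, beside 4.71% of all. All Ag-NP arrays of this concentration lay on slide 3 with 1 control array. The smallest p in each direction belonged to Ealb_Pest_P4_B12_T7_2175149, at 5.39, 4.69 and 2.09 with Ag-NP and 2.15, 3.14 and -0.25 in control, and Ealb_Pest_P3_E12_SP6_2091817, which no Ag-NP array at 100 mg/kg measured above background. Both had an adjusted p of 0.996, the groups of the first overlapped, and the bound for the second left no fold to give. The median difference was -0.19 for the 70 and -0.05 for all 446. Of the 70 intervals 58 lay within a 4-fold difference, with the same limits. Among the 58 was Ealb_Pest_P3_E12_SP6_2091817, for which no fold could be given. These silver groups share the control arrays with AgNO3 at 200 mg/kg.

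**Figure D4:**
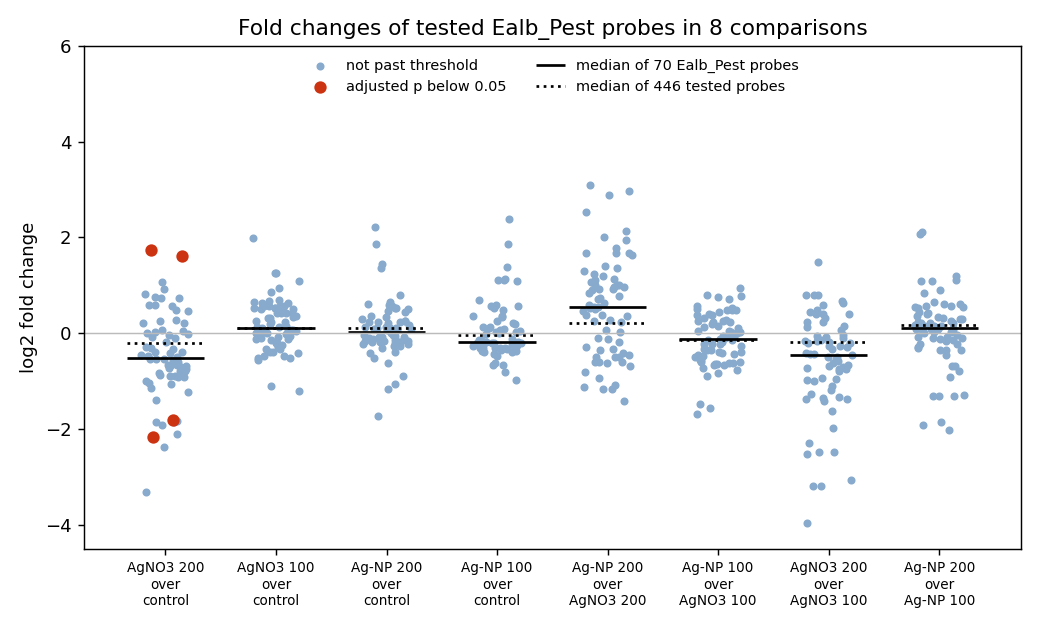
Log2 fold changes (vertical axis) of the 70 tested Ealb_Pest probes in 8 comparisons, each written as the first group over the second. Red points are the 4 past the adjusted p threshold, solid bars are medians of the 70 and dotted bars medians of the 446 tested probes. The solid bar lies at -0.51 for AgNO3 200 over control and at 0.55 for Ag-NP 200 over AgNO3 200.

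Between the silver forms at 200 mg/kg no Ealb_Pest probe passed (limma), where 1.12% of all tested probes did. An unadjusted p below 0.05 (limma) was found for 21 of the 70 (30%), close to the 31.2% of all tested probes. Ag-NP was the higher in 18 of the 21 and the lower in 3, beside 23.8% of all tested probes higher and 7.4% lower. The arrays lay apart for 28 (40%, beside 35.2%), 19 of them higher with Ag-NP (21.1% of all) and 9 lower (14.1% of all). The smallest p belonged to Ealb_Pest_P6_B4_SP6_2092055, with levels of 1.08, 1.69 and 1.54 with Ag-NP at 200 mg/kg and 0.55, -0.12 and 0.27 with AgNO3 at 200 mg/kg. The groups did not overlap, and means of 1.44 ± 0.32 with Ag-NP and 0.23 ± 0.34 with AgNO3 (SD, n = 3 each) gave a log2 difference of 1.20 ± 0.30 (SE) at an adjusted p of 0.0533 in limma, within 0.0148 to 0.729 over its 32 alternatives. In control it stood at 1.21, 0.92 and 1.29. Ealb_Pest_P7_A4_SP6_2092148 had -1.08 ± 0.39, with 1 Ag-NP array inside the range of the AgNO3 arrays (adjusted p = 0.114).

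The median log2 difference of Ag-NP over AgNO3 at 200 mg/kg was 0.55 for the 70 Ealb_Pest probes and 0.21 for all 446, and for probes above background on every array 0.73 for 33 and 0.09 for 227. With brightness as a covariate 11 Ealb_Pest probes passed in limma, 9 higher and 2 lower. The share of all tested probes that passed under that setting is not given. On slide 3 the log2 difference of Ealb_Pest_P6_B4_SP6_2092055 was 1.27. Within slide 1, where 2 Ag-NP arrays stood against 1 AgNO3 array, it was 0.83. That AgNO3 array, replicate 1, held the lowest level of several Ealb_Pest probes described below.

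At 100 mg/kg no Ealb_Pest probe differed between the forms (limma), where 1.12% of all tested probes did, and 3 of the 70 had an unadjusted p below 0.05, beside 10.1% of all. The arrays lay apart for 8 of the 70, beside 12.6% of all. Ealb_Pest_P6_B10_SP6_2092102 had levels of -3.58, -2.84 and -2.91 with Ag-NP and -1.78, -1.80 and -0.69 with AgNO3. No Ag-NP array at 100 mg/kg measured it above background and all AgNO3 arrays did, so the Ag-NP mean was at least 1.19-fold lower. The adjusted p of 0.0617 in limma (0.0212 to 0.439 over its 29 alternatives) comes from a probe admitted through the AgNO3 100 mg/kg group alone, and carries that choice. Ealb_Pest_P10_A3_SP6_2091097 had a log2 difference of 0.95 ± 0.45 (SE), with overlapping arrays (limma adjusted p = 0.498). The median difference was -0.12 for the 70 and -0.15 for all 446. No slide held both groups, so slide and form could be separated here only through the arrays of other groups.

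For AgNO3 at 200 over 100 mg/kg no Ealb_Pest probe passed, and 0% of all tested probes (limma). An unadjusted p below 0.05 (limma) was found for 18 of the 70 (25.7%, beside 19.7% of all), 17 of them lower at 200 mg/kg. Most of all tested probes at that limit were lower too, with 16.4% of all lower and 3.36% higher. The arrays lay apart for 18 of the 70, again 17 of them lower, beside 19.1% of all in either direction. The share of all that lay lower is not given. Since 11 of the 70 were tested only for being bright with AgNO3 at 100 mg/kg, both counts of lower probes carry that choice and are descriptions. Ealb_Pest_P2_H2_SP6_2091268 had the smallest p of those lower, at -1.68, -3.20 and -2.09 with 200 mg/kg and -0.29, 0.25 and -1.02 with 100 mg/kg. The groups did not overlap, but 1 of the 3 arrays at 200 mg/kg was above background, and the adjusted p was 0.17. Ealb_Pest_P6_D6_SP6_2092072, one of the rises above, had a log2 difference of 1.48 ± 0.48 (SE) with 1 array at 100 mg/kg inside the range at 200 mg/kg (adjusted p = 0.17). The median difference was -0.45 for the 70 and -0.19 for all 446, where 11 of the 70 had entered the test through AgNO3 at 100 mg/kg alone.

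For Ag-NP at 200 over 100 mg/kg no Ealb_Pest probe passed, and 0% of all tested probes (limma), with 5 of the 70 at an unadjusted p below 0.05, beside 6.95% of all. Groups did not overlap for 4, beside 8.74% of all. Ealb_Pest_P6_B10_SP6_2092102, had levels of -2.50, -1.84 and -1.73 with 200 mg/kg, and at 100 mg/kg no array measured it above background. Its adjusted p was 0.621 in limma and its bound left no fold. Ealb_Pest_P10_A9_SP6_2092329 had levels of -1.10, -3.75 and -4.08 with 200 mg/kg and -1.89, -1.29 and 0.02 with 100 mg/kg, which overlapped (log2 difference -1.93 ± 0.70, SE, limma adjusted p = 0.59). Only 1 array of each group measured it above background. The median difference was 0.10 for the 70 and 0.18 for all 446. In 4 of the 8 comparisons the median of the 70 had the other sign with spike-in scaling. It was then -0.17 for AgNO3 at 100 mg/kg and -0.35 for Ag-NP at 200 mg/kg against control, 0.12 for Ag-NP over AgNO3 at 100 mg/kg and -0.23 for Ag-NP at 200 over 100 mg/kg. When the percentile came from probes measured on every array, the sign changed as well in some of these comparisons. The median was then -0.03 for AgNO3 at 100 mg/kg and -0.20 for Ag-NP at 200 mg/kg against control, and -0.07 for Ag-NP at 200 over 100 mg/kg. With normexp and quantile normalization it was -0.02 for Ag-NP at 200 mg/kg against control.

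Some Ealb_Pest probes were well above background on all 3 arrays of 1 group and on none of another. With AgNO3 at 100 mg/kg 8 such probes (4.04% of the 198, beside 1.84% of all 1035) were above background and with AgNO3 at 200 mg/kg were not. Of these, Ealb_Pest_P6_D2_SP6_2092042 had levels of -2.96, -2.45 and -1.87 with 200 mg/kg and -1.08, -0.71 and -1.39 with 100 mg/kg, a mean at least 1.31-fold lower at 200 mg/kg (limma adjusted p = 0.17). Ealb_Pest_P9_B11_SP6_2091067 had -3.30, -3.27 and -2.31 with 200 mg/kg and -1.77, -1.21 and -1.78 with 100 mg/kg, with no fold left by its bound. Both had their arrays apart, and both were tested only because they passed on the AgNO3 100 mg/kg arrays. Of the 8, 5 were close to a single pattern. Ealb_Pest_P6_D2_SP6_2092042, Ealb_Pest_P5_H2_SP6_2091932, Ealb_Pest_P3_G6_SP6_2091774, Ealb_Pest_P7_D1_SP6_2092128 and Ealb_Pest_P7_E5_SP6_2092160 correlated at r = 0.89 to 0.98 over the 15 arrays and lay within 0.12 units of each other on each AgNO3 100 mg/kg array. The count of 8 is therefore not a count of independent probes.

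Between the forms, 4 Ealb_Pest probes (2.02%, beside 1.35% of all) were above background on all Ag-NP and no AgNO3 arrays at 200 mg/kg. Ealb_Pest_P4_A10_SP6_2091893 had levels of -0.88, 2.20 and -0.02 with Ag-NP at 200 mg/kg and -3.93, -3.44 and -0.26 with AgNO3 at 200 mg/kg, a mean at least 3.66-fold higher with Ag-NP, though its arrays overlapped (limma adjusted p = 0.114). Ealb_Pest_P5_H2_SP6_2091932 was at least 1.06-fold higher with Ag-NP (adjusted p = 0.158). At 100 mg/kg 7 probes (3.54%, beside 2.90% of all) were above background on all AgNO3 and no Ag-NP arrays, among them Ealb_Pest_P6_B10_SP6_2092102 and Ealb_Pest_P3_E12_SP6_2091817, the second at least 1.16-fold lower with Ag-NP (limma adjusted p = 0.129). Both had entered the test through AgNO3 at 100 mg/kg alone. A single probe (0.505%, beside 1.06% of all), Ealb_Pest_P10_D7_SP6_2092316, was on with Ag-NP at 200 mg/kg and off at 100 mg/kg. AgNO3 at 200 mg/kg and Ag-NP at 100 mg/kg each included an array of high negative-control spread.

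The 33 Ealb_Pest probes measured on every array differed widely in how much they varied. Their range over the 15 arrays ran from 0.86 to 8.78 log2 units with a median of 1.95, beside 0.68 to 8.78 with a median of 1.97 for all 227 such probes. A range over 4 units, a limit chosen after the values were seen, was found for 8 of the 33 (24.2%), beside 24 of the 227 (10.6%). At the steady end Ealb_Pest_P5_B5_SP6_2091950 stayed between 2.10 and 2.96 in all groups and Ealb_Pest_P9_F4_SP6_2091016 between -0.44 and 0.76, a range of 1.20.

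At the other end Ealb_Pest_P10_C11_SP6_2092344 spanned 439-fold. Its levels were 4.71, 7.06 and 2.70 with AgNO3 at 100 mg/kg, -1.40, 1.54 and 2.44 with AgNO3 at 200 mg/kg, 7.38, 5.39 and 1.81 with Ag-NP at 100 mg/kg, 3.22, 3.80 and 4.81 with Ag-NP at 200 mg/kg, and 6.18, 3.65 and 2.67 in control. Replicates of 1 group differed by up to 5.56 units. All AgNO3 200 mg/kg arrays were below all control arrays, but with that spread the log2 difference of -3.31 ± 1.39 (SE) had an adjusted p of 0.149 in limma.

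Ealb_Pest_P3_E11_T7_2175136 had the next widest range, 126-fold. Its levels were 7.77, 9.51 and 6.44 with AgNO3 at 100 mg/kg, 3.45, 5.16 and 5.93 with AgNO3 at 200 mg/kg, 10.43, 8.57 and 5.92 with Ag-NP at 100 mg/kg, 7.18, 6.79 and 6.99 with Ag-NP at 200 mg/kg, and 9.49, 6.47 and 5.68 in control. It was the one Ealb_Pest probe with saturated spots, 4 of them on Ag-NP 100 mg/kg replicate 1, so its highest level is a lower limit.

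The 8 wide-ranging probes, 5 T7 and 3 SP6, shared their pattern with 1 exception. In 7 of them the lowest array was AgNO3 200 mg/kg replicate 1 and the highest Ag-NP 100 mg/kg replicate 1, and over the 15 arrays their 21 pairs correlated at r = 0.77 to 0.9999. The mean of the 7 had a lowest, median and highest value of 3.61, 5.29 and 6.51 with AgNO3 at 100 mg/kg, 0.17, 2.92 and 3.75 with AgNO3 at 200 mg/kg, 3.32, 5.65 and 7.11 with Ag-NP at 100 mg/kg, 3.91, 4.14 and 4.62 with Ag-NP at 200 mg/kg, and 2.51, 4.19 and 5.91 in control. The AgNO3 200 mg/kg values overlapped those of control, and each group but Ag-NP at 200 mg/kg spread over more than 2 units. Their levels correlated with the log2 brightness of the array at r = 0.47 to 0.66 over the 15 arrays, and the part of brightness in this pattern was not tested. The exception, Ealb_Pest_P10_H2_SP6_2091096, had its highest level, 6.42, on AgNO3 200 mg/kg replicate 1 and correlated with the 7 at r = -0.42 to -0.29.

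Within the 7, Ealb_Pest_P4_C12_T7_2175150, Ealb_Pest_P4_G11_T7_2175146 and Ealb_Pest_P5_H12_T7_2175165 moved almost as 1 probe. After each probe's mean was taken away, their levels differed by at most 0.05, 0.10 and 0.12 units on any array for the 3 pairs, while their common mean spanned from -0.02 to 6.52. Ealb_Pest_P4_C12_T7_2175150 had levels of 4.95, 5.91 and 3.36 with AgNO3 at 100 mg/kg, 0.03, 2.99 and 3.75 with AgNO3 at 200 mg/kg, 6.54, 5.62 and 3.55 with Ag-NP at 100 mg/kg, 4.16, 3.55 and 4.06 with Ag-NP at 200 mg/kg, and 6.10, 4.04 and 2.22 in control. They come from different wells, and whether they share a sequence was not tested. Among the other probes above background on every array, 3 more Ealb_Pest probes, 3 Ealb_Met probes and 1 contig correlated with their mean at r above 0.9. The contig did so at r = 0.9997, so this pattern was not particular to Ealb_Pest probes.

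**Figure D5:**
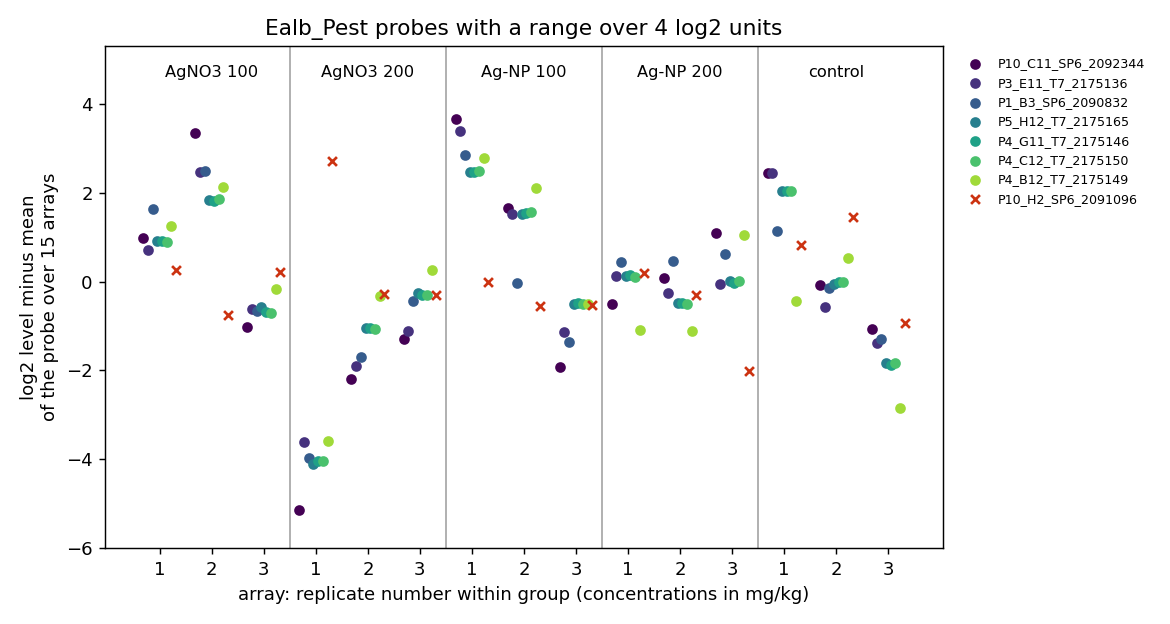
Levels of the 8 Ealb_Pest probes with a range over 4 log2 units, as log2 minus the probe's mean over 15 arrays (vertical axis), on each array by group and replicate number (horizontal axis). The 7 probes drawn as circles lie lowest on AgNO3 200 mg/kg replicate 1 and highest on Ag-NP 100 mg/kg replicate 1, where Ealb_Pest_P10_H2_SP6_2091096 (crosses) does not follow them.

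Close agreement was also found among probes of small range. Of the 528 pairs of the 33 probes, 11 correlated at r above 0.95 over the 15 arrays. Besides pairs within the 7 these were Ealb_Pest_P6_B12_SP6_2092118 with Ealb_Pest_P6_F1_SP6_2092018 (r = 0.997), each of them with Ealb_Pest_P9_G7_SP6_2091040 (0.97 and 0.98), and Ealb_Pest_P10_G9_SP6_2092335 with Ealb_Pest_P9_F4_SP6_2091016 (0.99). Ealb_Pest_P6_B12_SP6_2092118 had levels of 1.47, 0.44 and 0.86 with AgNO3 at 200 mg/kg and 1.97, 1.77 and 1.75 in control, with its AgNO3 arrays all lower. Probes that agree this closely are not independent measurements.

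Replicates of a group differed by a median SD of 0.48 (AgNO3 100 mg/kg), 0.54 (AgNO3 200 mg/kg), 0.50 (Ag-NP 100 mg/kg), 0.39 (Ag-NP 200 mg/kg) and 0.50 (control) log2 units over the 70 tested Ealb_Pest probes. Spots of 1 probe within an array differed by a median SD of 0.09 to 0.30, so the spread between replicates was the larger. The fit gave a median standard error of 0.45 and a 95% interval of 0.95 log2 units to either side. That interval is not adjusted for the number of probes, and the smallest change of an Ealb_Pest probe past the adjusted threshold was 1.61.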

How the data were processed

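The authors deposited spot intensity values of 15 one-colour Agilent arrays, made with Feature Extraction 10.5.1.1 per the file headers, with the background subtracted within each array and no scaling between arrays. A deposited table holds the authors' log2 values. How that table was normalized was not given in the sources used here, but its array columns all had the same median, 5.53. For the 70 tested Ealb_Pest probes it correlated with the log2 scanner values at r = 0.990 to 0.999 per array.

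Control and outlier spots were left out, log2 intensity was averaged per probe and the 75th percentile of the array subtracted. A single limma 3.58.1 fit (lmFit and eBayes, R 4.3.3) took all 15 arrays, with group as the only term and 10 residual degrees of freedom. Benjamini-Hochberg adjustment covered all 446 tested probes in each of 8 comparisons. The fit was tested on simulated data in which probes varied independently, unlike the correlated probes here. That run checked the code and does not give the error rate in these data. The members, rules and lists were chosen with earlier results of these data known.

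Named probes were, in each comparison, up to 2 rises and 2 falls past the threshold with arrays apart and the brighter group above background, or else the smallest p in each direction. Also named were the 2 largest and 2 smallest ranges, saturated probes, up to 2 probes on in 1 group and off in another for each pair, and the 2 probes most like each changed one. The remaining wide-ranging probes and the close pairs were named after their values were seen. A bound ("at least") sets the bright group's mean against, per array, the higher of the dim probe's signal and the lowest signal among probes above background. It concerns the measured means and leaves out the spread between arrays. Gene lists could not be used.

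Alternatives changed the scaling, the background correction (normexp, offset 50, on the median spot signal, since the mean signal is not in the files), the filter, the outlier spots and the groups fitted, used the deposited log2 table, added slide, scan day, replicate number or brightness as a term, fitted single slides, and left out each array. The 5 spike-in probes, slide as a random block and leaving out 3 arrays were added after seeing the data. The number of arrays limits the precision.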

Additional observations from a re-analysis of the deposited data

Results flagged for a closer look

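Ealb_Pest_P6_B10_SP6_2092102 was picked out because the silver groups lay on opposite sides of the control mean of -2.68, with every array of one group above it and every array of the other below. At 100 mg/kg the fitted log2 difference of Ag-NP from AgNO3 was -1.684, a value that is no size, since the bound is only 1.19-fold lower, with levels of -3.58, -2.84 and -2.91 for Ag-NP and -1.78, -1.80 and -0.69 for AgNO3. Between Ag-NP at 200 and 100 mg/kg the fitted difference was 1.088, for which the bound left no fold, with -2.50, -1.84 and -1.73 at 200 mg/kg. Tested directly, both missed the threshold (limma, adjusted p = 0.0617 and 0.621). The probe was above background on no Ag-NP 100 mg/kg array and on 1 control array, so the control mean it was set against is itself mostly unmeasured. It had entered the test through AgNO3 at 100 mg/kg alone, and all Ag-NP 100 mg/kg arrays lay on slide 3.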

How the results depend on the processing

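The rises, falls and smallest-p probes named for the comparisons kept their direction under all alternatives run. The wide-ranging probes and the probes on in 1 group and off in another were not refitted, unless also named for a comparison. The median of the tested Ealb_Pest probes changed sign with spike-in scaling in 4 of 8 comparisons. In some of the same comparisons it also changed sign with the percentile from probes measured on every array. For Ag-NP at 200 mg/kg against control it did so with normexp and quantile normalization too. For AgNO3 at 200 mg/kg against control the 4 calls became 2 in the authors' values, with spike-in scaling and with slide as a block, slide as a random block or scan day as a block, 1 with no filter, 10, 0 and 0 within slides 1, 2 and 3, and 12 when the 3 arrays of high negative-control spread were left out. With 1 array left out they ranged from 0 to 4, with 0 in the absence of control replicate 1 or of replicate 3 of AgNO3 at 200 mg/kg, 1 without control replicate 2, and 2 without control replicate 3, AgNO3 100 mg/kg replicate 1, AgNO3 200 mg/kg replicate 2, Ag-NP 100 mg/kg replicate 3 or any 1 array of Ag-NP at 200 mg/kg. Over all alternatives the adjusted p ran from 0.00905 to 0.996 for Ealb_Pest_P8_B10_SP6_2090967, 0.0195 to 0.996 for Ealb_Pest_P6_D6_SP6_2092072, 0.00515 to 0.996 for Ealb_Pest_P10_A3_SP6_2091097 and 0.0125 to 0.996 for Ealb_Pest_P5_G5_SP6_2091955 (limma).

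Where no Ealb_Pest probe had passed, some did under other settings. Shares of all tested probes are not given for these alternatives or for those above, so their counts cannot be set against the whole array. For Ag-NP over AgNO3 at 200 mg/kg there were 4 with normexp and quantile normalization or without the 3 arrays, 1 in the authors' values or with only the 2 groups compared, 2 with no filter or slide as a random block, 11 with brightness as a covariate and 12 within slide 1, and 0 to 4 with 1 array left out (4 when this was replicate 1 of AgNO3 at 200 mg/kg, 3 for replicate 1 of Ag-NP at 200 mg/kg, and 2 and 1 for replicates 1 and 2 of Ag-NP at 100 mg/kg). For Ag-NP over AgNO3 at 100 mg/kg there was 1 with array median scaling or in the authors' values and 3 with slide as a random block or brightness as a covariate, and 0 to 1 with 1 array left out (control replicate 1). For AgNO3 at 200 over 100 mg/kg there was 1 in the authors' values, 4 with only the 2 groups compared and 8 within slide 1, and 0 to 3 with 1 array left out (AgNO3 100 mg/kg replicate 3). For Ag-NP at 200 mg/kg against control there were 4 within slide 1, and for Ag-NP at 200 over 100 mg/kg 2 without the 3 arrays, each with 0 to 1 when 1 array was left out (Ag-NP 200 mg/kg replicate 1). AgNO3 and Ag-NP at 100 mg/kg against control kept 0 calls throughout. Other shares of spots well above background, of 0.25 and 0.75, kept all counts of detection within 1.5 times.

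The main fit did not pair arrays by replicate number. The 30 same-numbered pairs had deviations correlated at r = -0.50 to 0.74, and 7 of 15 arrays correlated best with their own number. Pairs of unlike number reached r = -0.80 and 0.82, and how often such matches occur without pairing was not tested. These values therefore cannot decide whether the replicates were paired. With the replicate block 3 Ealb_Pest probes passed for AgNO3 at 200 mg/kg against control and 1 for Ag-NP over AgNO3 at 100 mg/kg. The causes of these differences were not tested. Fits within 1 slide had 1 array in each group on the slide but 1, so their spread came from that group alone. On slide 1 this group was Ag-NP at 200 mg/kg with 2 arrays. Over all arrays its replicates had the smallest median SD, 0.39. The counts within slides therefore do not show how many probes changed. Signal over background limits the 128 untested probes, for which no difference could be given.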
